A study of Rattus norvegicus with 16 samples.

Results

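The hepatocyte lineage transcription factors Hnf4a, Onecut1, Foxa1, Foxa2, Foxa3, Cebpa, Cebpb and Prox1 were followed in rat hepatoma H35 cells. All probes that carry 1 of these 8 gene names were taken, out of 26269 gene names on the array, which gave 9 probes. The study silenced Pdrg1, which encodes a prefoldin-like protein, with shRNA plasmids in H35 cells and measured the RNA on 16 one-colour Agilent rat arrays, 4 biological replicates in each of 4 groups. CN-10 is 1 stable clone that carries the negative control plasmid. The clone 4-18 (shRNA4-18 in the labels) carries the shRNA4 plasmid and the clone 3-44 (shRNA3-44) the shRNA3 plasmid. The shRNA3T group (shRNA3-trans) is an enriched pool of cells transfected with the shRNA3 plasmid and not cloned. All 4 groups went through G418 at 1.8 mg/ml, and the 3 clones also went through 4 mg/ml, so the pool and CN-10 differ in selection as well as in plasmid. Each stable group is a single clone, and its 4 replicates therefore do not sample other clones of the same plasmid.

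These factors bind the promoters and enhancers of one another and of most genes that make a cell a hepatocyte. HNF4A is a nuclear receptor needed for the expression of plasma proteins and enzymes of metabolism, and ONECUT1, also called HNF6, is a cut homeodomain factor that acts with it. The FOXA proteins are forkhead factors that open chromatin at liver enhancers, C/EBP alpha and C/EBP beta are leucine zipper factors tied to quiescent metabolism and to the acute phase response, and PROX1 is a homeobox factor of the early liver bud.

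All 8 genes were also matched to the current rat gene table through the transcript accession of their probe. The probe sequences below are shown because each gene except Foxa1 was read by 1 probe, so a result stands on that sequence alone. They are the 4 member probes that can be read through without an inner stop codon in more than 1 frame, and capitals mark a stop codon that closes the probe of Foxa1 and that of Onecut1.
Hnf4a probe: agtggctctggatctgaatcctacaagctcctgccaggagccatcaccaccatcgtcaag
Onecut1 probe: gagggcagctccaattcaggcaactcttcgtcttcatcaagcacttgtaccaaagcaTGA
Foxa1 probe: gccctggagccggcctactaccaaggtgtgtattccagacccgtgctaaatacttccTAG
Prox1 probe: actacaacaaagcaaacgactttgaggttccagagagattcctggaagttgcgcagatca

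The array design places the probes on rat genome build rn4. The Hnf4a probe lies on the plus strand at chr3:154482715-154482774 and the Onecut1 probe on the plus strand at chr8:79671988-79672047. The Foxa1 probe that was read lies on the minus strand at chr6:78005464-78005523. A further Foxa1 probe lies 28.9 kilobases away, at chr6:77976521-77976580, and was well above background on 1 array of CN-10, on 1 array of shRNA3T and on none of the other groups, so Foxa1 was read by the brighter probe. The probes of Foxa2 (chr3:136739040-136739099) and Foxa3 (chr1:78368067-78368126) match the minus strand, and those of Cebpa (chr1:87627393-87627452) and Cebpb (chr3:158827761-158827820) the plus strand. The match of the Prox1 probe on the minus strand of chromosome 13 stretches over 23985 bases, from 106423135 to 106447119, although the probe has 60 bases. Exon positions on that build were not used here.

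The 250 bases before the start of transcription were available for 5 of the 8 genes, in 6 windows, since Hnf4a has 2 starts in the table (RefSeq, build GRCr8, read along the gene's strand). The genes without a window are Foxa1, Onecut1 and Prox1. They were searched on both strands for the words TGTTTAC and TGTTTGC (FOXA), CAAAGTCCA and CAAAGGTCA (HNF4), ATCAATA (ONECUT) and TTGCNNAA (C/EBP), none of which overlapped another in these windows. The upstream start of Hnf4a and the start of Foxa2 are shown because they were the 2 windows with a match, and those of Foxa3 and Cebpa because these genes rose in both stable clones. Capitals mark the matched word.
Hnf4a, plus strand, chr3:172605970-172606219: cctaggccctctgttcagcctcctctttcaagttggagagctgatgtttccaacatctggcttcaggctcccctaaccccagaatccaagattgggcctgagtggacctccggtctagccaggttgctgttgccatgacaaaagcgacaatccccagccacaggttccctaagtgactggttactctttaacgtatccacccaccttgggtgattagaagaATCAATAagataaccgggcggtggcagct
Foxa2, minus strand, chr3:155927509-155927758: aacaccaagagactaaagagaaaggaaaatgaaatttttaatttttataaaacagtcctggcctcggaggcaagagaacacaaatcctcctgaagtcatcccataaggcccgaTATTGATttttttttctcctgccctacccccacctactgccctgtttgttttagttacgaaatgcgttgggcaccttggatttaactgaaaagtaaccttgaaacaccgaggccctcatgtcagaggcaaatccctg
Foxa3, minus strand, chr1:87799486-87799735: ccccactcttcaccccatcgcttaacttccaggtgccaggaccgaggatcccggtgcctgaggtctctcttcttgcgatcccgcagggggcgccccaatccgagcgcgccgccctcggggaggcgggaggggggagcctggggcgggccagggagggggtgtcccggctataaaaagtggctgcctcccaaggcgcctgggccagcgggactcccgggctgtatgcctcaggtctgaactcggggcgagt
Cebpa, plus strand, chr1:96896334-96896583: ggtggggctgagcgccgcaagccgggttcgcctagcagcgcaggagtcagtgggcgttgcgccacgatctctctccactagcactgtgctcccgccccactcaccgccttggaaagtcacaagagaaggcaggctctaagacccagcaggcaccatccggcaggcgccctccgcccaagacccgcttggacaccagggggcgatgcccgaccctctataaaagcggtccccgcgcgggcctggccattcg

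The ONECUT word began 29 bases before the upstream start of Hnf4a, on the gene's strand, and its reverse complement TATTGAT began 137 bases before the start of Foxa2. Of all 33469 rat windows in the table, 1.93% held this word. The C/EBP word was in 9.22% of all windows, the FOXA words in 3.21% and 4.16%, and the HNF4 words in 0.338% and 0.376%, and none of them was in the 6 windows of the members. A match of letters does not say that a factor was bound there.

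Values are normalized log2 intensities, the base 2 logarithm of the spot's fluorescence after background correction and quantile normalization, so a difference of 1 is 2-fold. Levels of different probes are not set against each other. A gene was counted as past the test with an adjusted p under 0.05 (limma, Benjamini-Hochberg over the 30365 to 30367 probes with values in the comparison). The exact permutation test of 4 arrays against 4 is given beside it, two-sided, and cannot give a p below 0.0286. In RNA from whole cultures, fewer cells that express a gene and less RNA in each cell cannot be told apart.

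The 4 groups occupied 1 slide each, and that of 4-18 had a different scan day, so an effect of the slide cannot be told apart from one of the group. The arrays of 4-18 were dimmer, with 53.1 to 64.1% of the spots well above background against 64.7 to 74.3% in the other groups. Pdrg1, the silenced gene, read 13.64 ± 0.22 (SD, n = 4) in CN-10. The silenced groups read lower, 4-18 at 12.87 ± 0.87, 3-44 at 12.65 ± 0.51 and shRNA3T at 12.79 ± 0.27. Every array of the silenced groups lay below every array of CN-10 (exact permutation p = 0.0286 in each), while the limma adjusted p were 0.129, 0.105 and 0.143. Replicate 1 stood apart as the lowest array of each silenced group, at 11.57 against 13.25 to 13.34 in 4-18, 11.89 against 12.86 to 12.95 in 3-44 and 12.39 against 12.90 to 12.97 in shRNA3T. Without replicate 1 of 4-18, the Pdrg1 difference in that clone went from -0.77 to -0.33 log2 units (adjusted p = 0.349 by limma). Without replicate 1 of every group the differences were -0.41, -0.82 and -0.79 log2 units in 4-18, 3-44 and shRNA3T, and all 3 passed the test (adjusted p up to 0.00647 by limma). The clone 4-18 also had the widest spread between replicates over the member probes, with a median SD of 0.31 log2 units against 0.20 in CN-10, 0.15 in 3-44 and 0.16 in shRNA3T.

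The first question is which of the 8 factors differed between the silenced groups and CN-10. Against CN-10, 5 of the 8 passed the test in 4-18, where 23.6% of all probes did. Foxa1, Foxa3, Cebpa and Onecut1 were higher (background 11.6% of probes higher) and Cebpb was lower (background 12% lower). In 3-44, 2 of the 8 passed, Foxa3 and Cebpa, both higher, against a background of 7.85% of probes (3.48% higher, 4.37% lower). In shRNA3T, 2 of the 8 passed, Foxa3 and Onecut1, both higher, against a background of 11.9% (5% higher, 6.85% lower). With 1.1% of all probes higher in all 3 comparisons, which share the CN-10 arrays, Foxa3 was the one factor past the test in all 3. It was so with outlier spots kept but under none of the 4 other ways of background correction or scaling, where the call was lost in shRNA3T each time, in 3-44 with 75th percentile scaling and with the authors' values, and in 4-18 with the authors' values and with the processed signal scaled to the 75th percentile. The median difference of the 8 genes was 0.35 log2 units in 4-18, 0.28 in 3-44 and 0.19 in shRNA3T, against 0.0057, -0.0031 and -0.0072 over all probes.

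No member changed by 2-fold or more with an adjusted p under 0.05 by limma in any of the 3 comparisons, where 5.91%, 1.4% and 2.29% of all probes did. That holds for this normalization, since with the processed signal of the scanner software Onecut1 in shRNA3T (1.17 and 1.20 log2 units) and Foxa3 in 3-44 (1.14 and 1.33) passed both limits under 2 scalings, and Cebpa in 4-18 (1.04) under 1. Foxa3 in 4-18 did so with 75th percentile scaling (1.15), and Cebpb in 4-18 with the values the authors deposited (-1.44). At an unadjusted p under 0.05, 5 members passed in 4-18, 4 in 3-44 and 3 in shRNA3T, against 34%, 19.3% and 22.8% of all probes. The largest differences were those of Onecut1, 0.97 log2 units in 4-18 and 0.90 in shRNA3T, and that of Foxa3 in 3-44, 0.87.

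**Figure D1:**
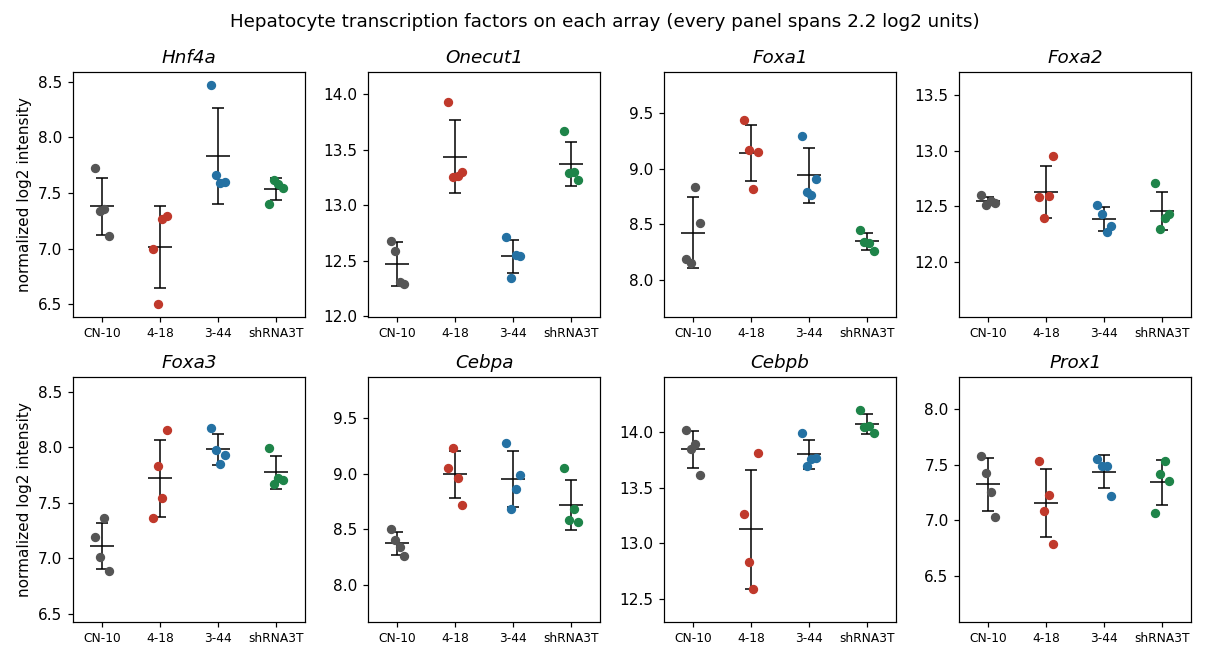
Normalized log2 intensity (vertical axis) of the 8 genes on each array, by group (horizontal axis). Each point is 1 array, the horizontal dash is the group mean and the bar its SD (n = 4); all panels have the same height in log2 units. Onecut1 forms a high pair of groups (4-18 and shRNA3T) and a low pair (CN-10 and 3-44), Foxa3 is lowest in CN-10, and Cebpb is low and spread out in 4-18.

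Onecut1 showed the clearest division of the groups. In CN-10 it read 12.68, 12.59, 12.31 and 12.29 on the 4 arrays, in 4-18 13.93, 13.25, 13.26 and 13.29, in 3-44 12.71, 12.35, 12.56 and 12.54, and in shRNA3T 13.67, 13.29, 13.30 and 13.23. All 8 arrays of 4-18 and shRNA3T lay above all 8 arrays of CN-10 and 3-44. Onecut1 was 1.95-fold higher in 4-18 than in CN-10 (0.97 log2 units, 95% interval 0.64 to 1.29, adjusted p = 0.000288 by limma). In shRNA3T it was 1.87-fold higher (0.90, interval 0.57 to 1.23, adjusted p = 0.00111 by limma).

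In 3-44, which carries the same shRNA3 plasmid as the pool, the difference of Onecut1 from CN-10 was 0.07 log2 units with an interval from -0.26 to 0.40. The direct comparison of 3-44 with shRNA3T gave -0.83 (adjusted p = 0.00259 by limma) and that of 4-18 with 3-44 gave 0.89 (adjusted p = 0.000607 by limma). In order of level, 4-18 and shRNA3T did not differ beyond their spread (difference 0.06, adjusted p = 0.834 by limma), nor did 3-44 and CN-10 (adjusted p = 0.869 by limma). The level of 4-18 in this order depends on the scaling. Against shRNA3T it was 0.07 log2 units with 75th percentile scaling, or -0.89 relative to the median of all probes. It was -0.33 and -0.39 with the processed signal under 2 scalings, and -0.65 with the authors' values (adjusted p = 0.0544 by limma). Against CN-10 it was 0.21 with the authors' values (adjusted p = 0.476 by limma). Against 3-44 it was 0.88 with 75th percentile scaling, or 0.04 relative to that median, and 0.28 with the authors' values (adjusted p = 0.411 by limma). Replicate 1 was the highest array of 4-18 and of shRNA3T, and Onecut1 kept its calls without replicate 1 in every group.

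Hnf4a, the receptor at the centre of this network, passed the test in no comparison with CN-10. It read 7.73, 7.34, 7.35 and 7.11 in CN-10, 6.99, 6.50, 7.26 and 7.30 in 4-18, 8.47, 7.66, 7.59 and 7.60 in 3-44, and 7.40, 7.62, 7.58 and 7.55 in shRNA3T. The groups overlapped CN-10 in each case. The differences were -0.37 log2 units in 4-18 (interval -0.81 to 0.07), 0.45 in 3-44 (0.01 to 0.89) and 0.16 in shRNA3T (-0.28 to 0.60).

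Under quantile normalization the clones 4-18 and 3-44 lay on opposite sides of CN-10 for Hnf4a, and their direct comparison passed the test. With 75th percentile scaling both lay above CN-10, by 0.39 and 0.43 log2 units, where 4-18 was at -0.47 relative to the median of all probes. Hnf4a was 1.76-fold lower in 4-18 than in 3-44 (-0.82 log2 units, interval -1.26 to -0.38, adjusted p = 0.00951 by limma) and the arrays of the 2 clones did not overlap (exact permutation p = 0.0286). The probe was dim, with a raw mean signal between 85.5 and 292 over a local background of 26 to 49, and was well above background on 3 of the 4 arrays of 4-18 and on all others. Neighbours in the order 3-44, shRNA3T, CN-10 and 4-18 did not differ past the test.

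Of the 3 FOXA genes, Foxa3 was higher in every silenced group. Foxa3 read 7.19, 7.01, 7.36 and 6.88 in CN-10, 7.36, 7.83, 7.55 and 8.15 in 4-18, 8.18, 7.98, 7.85 and 7.93 in 3-44, and 7.997, 7.67, 7.73 and 7.71 in shRNA3T. The arrays of 3-44 and shRNA3T were all above those of CN-10 (exact permutation p = 0.0286 in each), and the lowest array of 4-18 touched the highest of CN-10 (p = 0.0571, exact). The gene was 1.83-fold higher in 3-44 (0.87 log2 units, interval 0.54 to 1.20, adjusted p = 0.00217 by limma). It was 1.58-fold higher in shRNA3T (0.66, interval 0.34 to 0.99, adjusted p = 0.00957 by limma) and 1.52-fold higher in 4-18 (0.61, interval 0.28 to 0.93, adjusted p = 0.00864 by limma).

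The 3 silenced groups did not differ from each other in Foxa3 past the test, and the widest of these differences was -0.26 log2 units, 4-18 against 3-44 (interval -0.59 to 0.06). The Foxa3 spot was dim as well, with raw signals from 115 to 286, and was well above background on all 16 arrays. The offset added in the background correction draws differences of such dim spots towards 0.

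Foxa1 was higher in the clone 4-18. It read 8.19, 8.15, 8.84 and 8.51 in CN-10, 9.44, 9.16, 8.82 and 9.15 in 4-18, 9.29, 8.79, 8.76 and 8.91 in 3-44, and 8.45, 8.34, 8.33 and 8.26 in shRNA3T. One array of CN-10, at 8.84, reached into the range of both clones. Foxa1 was 1.65-fold higher in 4-18 (0.72 log2 units, interval 0.37 to 1.06, adjusted p = 0.00421 by limma, exact permutation p = 0.0571). In 3-44 the difference of 0.52 (interval 0.17 to 0.86) did not pass (adjusted p = 0.0681 by limma), and in shRNA3T it was -0.08 (interval -0.42 to 0.27).

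Both clones were above the pool in Foxa1 without overlap. The difference was 0.80 log2 units for 4-18 (adjusted p = 0.0023 by limma) and 0.59 for 3-44 (adjusted p = 0.0279 by limma). The second of these calls was lost without any 1 of 5 single arrays, with adjusted p up to 0.0856.

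Foxa2 passed in no comparison. It was read by 10 spots on each array, the only member with more than 1 spot per probe, and ranged from 12.51 to 12.60 in CN-10, from 12.40 to 12.95 in 4-18, from 12.27 to 12.51 in 3-44 and from 12.30 to 12.71 in shRNA3T. The 3 intervals of its difference from CN-10 ran from -0.15 to 0.32 in 4-18, from -0.40 to 0.07 in 3-44 and from -0.33 to 0.15 in shRNA3T, all inside 2-fold under this normalization. All 4 arrays of 3-44 lay just below all 4 of CN-10, by 0.16 log2 units on average (adjusted p = 0.474 by limma).

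The 2 C/EBP genes moved in opposite directions in 4-18. Cebpa read 8.50, 8.40, 8.34 and 8.26 in CN-10, 9.05, 9.23, 8.97 and 8.72 in 4-18, 9.28, 8.68, 8.86 and 8.99 in 3-44, and 9.05, 8.59, 8.68 and 8.57 in shRNA3T. Every array of the 3 silenced groups lay above every array of CN-10. Cebpa was 1.53-fold higher in 4-18 (0.62 log2 units, interval 0.32 to 0.92, adjusted p = 0.00446 by limma) and 1.49-fold higher in 3-44 (0.58, interval 0.28 to 0.88, adjusted p = 0.0191 by limma). In shRNA3T the difference of 0.35 (interval 0.05 to 0.65) did not pass the test (adjusted p = 0.143 by limma), though it did with array weights (0.28, adjusted p = 0.04 by limma). The groups next to each other in the order 4-18, 3-44, shRNA3T and CN-10 did not differ past the test. The call in 3-44 was lost without replicate 3 or 4 of CN-10 or replicate 1 or 4 of 3-44, with adjusted p up to 0.0547.

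Cebpb read 14.02, 13.85, 13.90 and 13.62 in CN-10, 13.27, 12.83, 12.59 and 13.81 in 4-18, 13.99, 13.69, 13.75 and 13.77 in 3-44, and 14.20, 14.04, 14.06 and 14.00 in shRNA3T. Replicates 1, 2 and 3 of 4-18 were below all other arrays and replicate 4, at 13.81, was within the range of CN-10. Cebpb was 1.65-fold lower in 4-18 than in CN-10 (-0.72 log2 units, interval -1.13 to -0.31, adjusted p = 0.0129 by limma, exact permutation p = 0.0571), a call that was lost without replicate 1 of every group (adjusted p = 0.0569 by limma). It did not pass in 3-44 (-0.04, interval -0.45 to 0.37) or in shRNA3T (0.23, interval -0.18 to 0.64).

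The clone 4-18 was also lower in Cebpb than the other silenced groups. The difference was -0.68 log2 units against 3-44 (adjusted p = 0.0196 by limma) and -0.95 against shRNA3T (adjusted p = 0.00235 by limma), and the arrays of 4-18 did not overlap those of the pool. The call against 3-44 was lost without replicate 1 of 3-44, without replicate 2 or 3 of 4-18, or without replicate 1 of every group (adjusted p up to 0.0785 by limma). The SD of Cebpb in 4-18 was 0.54 against 0.09 to 0.17 in the other groups.

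Prox1 passed in no comparison. It ranged from 7.03 to 7.58 in CN-10, from 6.79 to 7.53 in 4-18, from 7.22 to 7.55 in 3-44 and from 7.06 to 7.54 in shRNA3T, and all groups overlapped. The differences from CN-10 were -0.17 log2 units in 4-18 (interval -0.50 to 0.16), 0.12 in 3-44 (-0.22 to 0.45) and 0.02 in shRNA3T (-0.31 to 0.35). Its probe was dim and was well above background on 3 of the 4 arrays of 4-18.

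**Figure D2:**
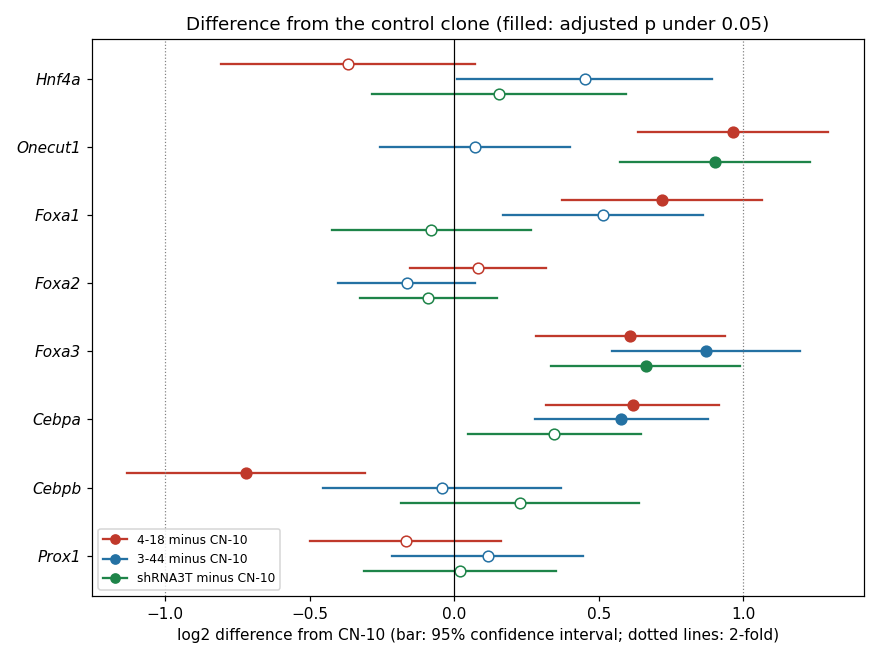
Difference of each silenced group from CN-10 in log2 units (horizontal axis) for the 8 genes (vertical axis), with the 95% confidence interval of the limma fit as a bar. Filled points have an adjusted p under 0.05 and dotted lines mark 2-fold. Foxa3 is the one gene with 3 filled points, and no filled point lies beyond the 2-fold lines.

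The silenced groups were also compared with one another, since 2 plasmids and 2 ways of selection are represented. Between 4-18 and 3-44, 3 of the 8 passed the test (Hnf4a and Cebpb lower, Onecut1 higher in 4-18), where 22.1% of all probes did. Between 4-18 and shRNA3T, 2 passed (Foxa1 higher, Cebpb lower in 4-18; background 20.1%). Between 3-44 and shRNA3T, the clone and the pool of the same plasmid, 2 passed (Foxa1 higher, Onecut1 lower in 3-44; background 10.6%). Foxa2, Foxa3, Cebpa and Prox1 passed in none of these 3 comparisons as fitted here. Foxa2 in 4-18 against 3-44, at 0.25 log2 units, did pass with the processed signal (0.60 and 0.56, adjusted p = 0.00417 and 0.00565 by limma), with outlier spots kept (0.33, adjusted p = 0.0388 by limma) and with array weights (0.34, adjusted p = 0.0254 by limma). Cebpa in 4-18 against shRNA3T, at 0.27, passed under 3 other scalings (0.49 to 0.57, adjusted p up to 0.0345 by limma). At an unadjusted p under 0.05 the numbers were 4, 3 and 2, against 33.2%, 30.4% and 22.8% of all probes.

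The calls were also read under other ways of scaling. When each array was scaled to its 75th percentile in place of quantile normalization, the median of all probes stood 0.86 log2 units higher in 4-18 than in CN-10. All 5 calls in 4-18 held under that scaling, with Onecut1 at 0.95 log2 units, Foxa1 at 0.95, Cebpa at 0.91 and Foxa3 at 1.15 (adjusted p up to 0.02 by limma), and Cebpb at -0.76 (adjusted p = 0.0208 by limma), while 58.9% of all probes passed. Taken relative to that median, Onecut1 was 0.08 log2 units above it in 4-18, Foxa1 0.08, Cebpa 0.05 and Foxa3 0.29, while Cebpb was 1.62 below it (relative difference -1.62) and Foxa2 at -0.81. In the values the authors deposited without scaling between arrays, where that median stood at 0.15, the relative differences in 4-18 were 0.06 for Onecut1, 0.08 for Foxa1, 0.07 for Cebpa, 0.32 for Foxa3 and -1.59 for Cebpb. With the processed signal of the scanner software scaled to the 75th percentile, where the median stood at 0.20, they were 0.64, 0.42, 0.74, 0.56 and -0.58 in the same order. Foxa2, which did not pass in 4-18, thus took either sign.

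In 3-44 and shRNA3T the choice of scaling moved these values less. The relative difference of Foxa3 ran from 0.81 to 1.32 in 3-44 and from 0.67 to 0.99 in shRNA3T, that of Cebpa in 3-44 from 0.51 to 0.82, and that of Onecut1 in shRNA3T from 0.91 to 1.40. Hnf4a in 4-18 against 3-44 was at -0.04 log2 units with 75th percentile scaling, and at -0.88 relative to the median. Among all 16 calls of a member, 12 were lost with the authors' values and 4 were kept, those of Cebpb in 4-18 against each other group and that of Onecut1 in 3-44 against shRNA3T. Calls were fewer over all probes as well, with 15.2% in 4-18, 0.688% in 3-44 and 1.46% in shRNA3T against CN-10 (23.6%, 7.85% and 11.9% with quantile normalization). With the processed signal scaled to the 75th percentile, the calls of Cebpb in 4-18 against CN-10 and against 3-44 were lost, and so were those of Foxa3 in 4-18 and shRNA3T. The sign of no called member turned under any scaling, in log2 units or relative to the median.

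**Figure D3:**
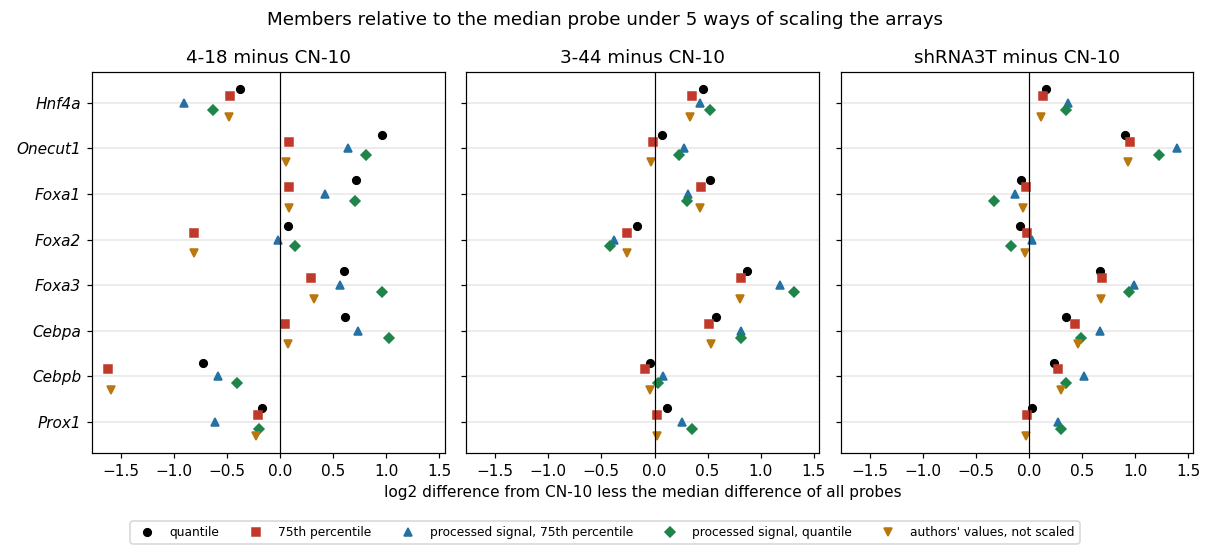
Difference from CN-10 in log2 units, less the median difference of all probes (horizontal axis), for the 8 genes (vertical axis) under 5 ways of background correction and scaling, 1 panel per silenced group. In 4-18, Onecut1, Foxa1 and Cebpa lie between 0.05 and 1.02 depending on the scaling, while in the other panels the symbols of a gene stay closer together.

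Other transcription factors of the liver network were taken from a list of 30, of which 27 were on the array (Onecut2, Onecut3 and Foxo1 were not found by name). In 4-18, 9 of the 27 were higher and 2 lower, in 3-44 8 were higher and 1 lower, and in shRNA3T 8 were higher and none lower, against the backgrounds given above for all probes. The median difference of the list was 0.12, 0.14 and 0.30 log2 units. Creb3l3, Dbp, Nr0b2, Nr1i2, Ppara and Tef were higher in all 3 comparisons, which share the CN-10 arrays, and 1.1% of all probes were so. With the authors' values none of the 27 factors passed in 3-44, so none of them was called in all 3 there.

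Dbp and Tef, leucine zipper factors of the circadian output, were among the factors that rose most. Dbp went from 11.85 ± 0.11 (SD, n = 4) in CN-10 to differences of 1.51, 1.00 and 1.18 log2 units in 4-18, 3-44 and shRNA3T, and Tef differed by 1.59, 0.58 and 1.18. Creb3l3, a membrane-bound factor that drives genes of lipid metabolism, was higher by 1.36, 0.84 and 1.68 log2 units. Nr5a2, a nuclear receptor that acts with HNF4A on bile acid genes, was higher by 1.39 in 4-18 and 1.07 in 3-44 and did not pass in shRNA3T.

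Ppargc1a, the coactivator of HNF4A and of gluconeogenesis, stood well above background on the 4 arrays of 4-18 and on no array of the other groups. It was at least 4.72-fold higher in 4-18 than in CN-10, with the detection floor of each CN-10 array, the lowest signal among its probes well above background, as the base (adjusted p = 1.62e-09 by limma).

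The 34 hepatocyte target genes of these factors were all on the array. In 4-18, 11 were higher and 9 lower, in 3-44 14 were higher and none lower, and in shRNA3T 17 were higher and 1 lower. Over all probes, 11.6% were higher and 12% lower in 4-18, 3.48% and 4.37% in 3-44, and 5% and 6.85% in shRNA3T. The median difference was -0.04, 0.47 and 0.50 log2 units. In all 3 comparisons 8 of them were higher, among them G6pc, Igfbp1, Lipc, Mttp, Pklr and Ttr, again with the same CN-10 arrays in each and against 1.1% of all probes.

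Mttp, which loads lipid onto apolipoprotein B, was higher by 2.70 log2 units in 4-18, 3.04 in 3-44 and 2.92 in shRNA3T. Ttr, the thyroid hormone carrier and a classic FOXA and HNF4A target, was higher by 2.93, 2.84 and 2.39, with 1 CN-10 spot set aside as an outlier (n = 3). G6pc, which releases glucose from glucose 6-phosphate, was higher by 1.95, 2.08 and 2.64.

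The plasma protein genes Apoa1, Apoc3, Fga and Fgb were called in both directions, as were 1.23% of all probes. Apoa1, the main protein of high density lipoprotein, was lower in 4-18 (difference -2.12), higher in 3-44 (2.18) and at 0.04 in shRNA3T, where it did not pass. Fga, a fibrinogen chain, was lower in 4-18 (-1.25) and higher in 3-44 (1.66) and shRNA3T (2.65).

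**Figure D4:**
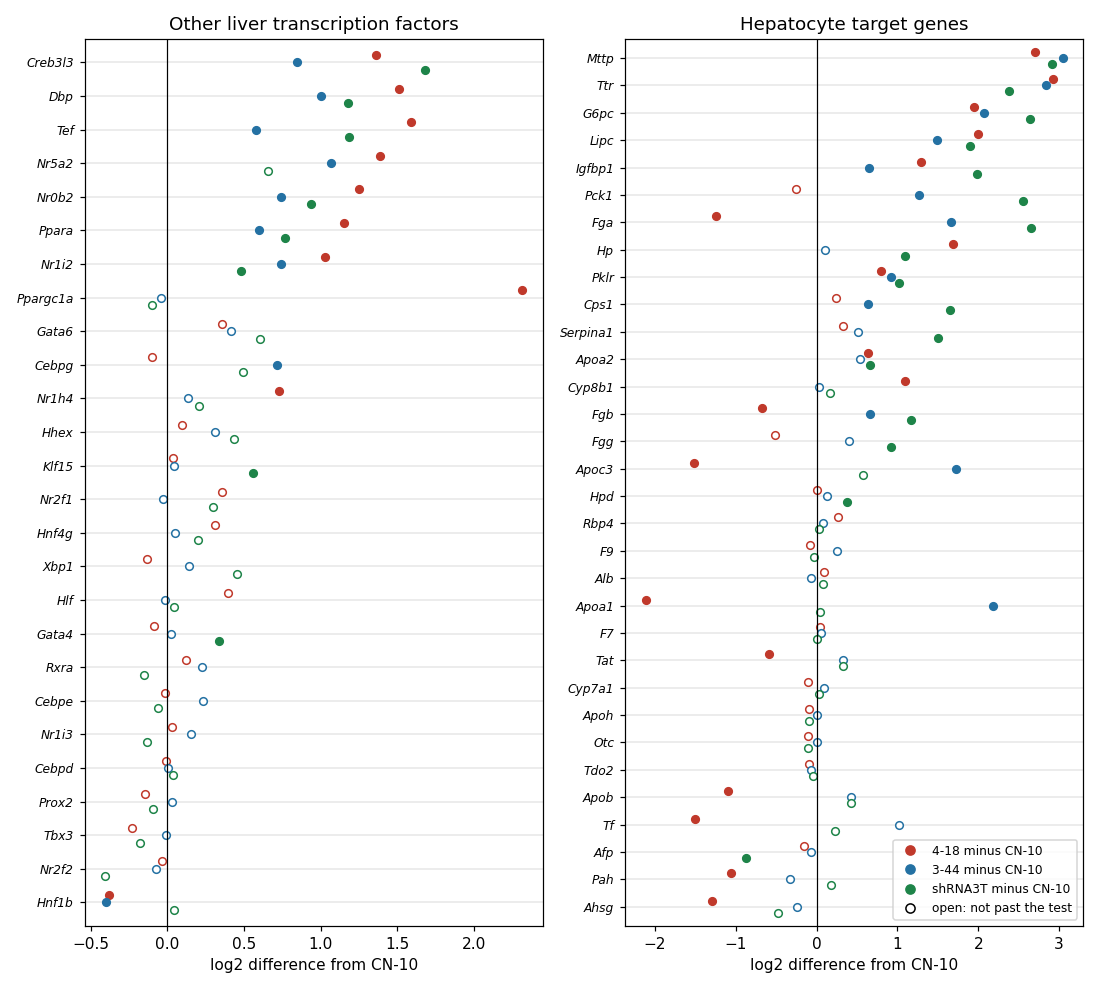
Difference of each silenced group from CN-10 in log2 units (horizontal axis) for 26 other liver transcription factors (left) and 32 hepatocyte target genes (right), 1 point per silenced group; filled points have an adjusted p under 0.05. Most filled points lie right of 0, and Apoa1, Apoc3, Fga and Fgb have filled points on both sides.

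The label hepatocyte was checked against marker genes. The 9 hepatocyte markers were all detected well above background on each array of 3-44, shRNA3T and CN-10, and 8 of them on each array of 4-18. Detection was less complete among the 34 hepatocyte target genes. Only 23 of them were well above background on every array of 4-18, and 25 on every array of each other group. Targets detected on no array of a group numbered from 3 (clone 3-44) to 7 (clone 4-18). Of the 9 markers, 1 was higher and 4 lower in 4-18, where 11.6% of all probes were higher and 12% lower. In 3-44, 4 were higher (3.48% of all probes), and in shRNA3T 3 were higher (5%). The log2 of the summed level of the 9 markers ran from 19.01 to 19.41 in CN-10, 18.95 to 19.22 in 4-18, 18.99 to 19.93 in 3-44 and 19.25 to 19.59 in shRNA3T. Epcam, Spp1, Pecam1, Lyve1, Lrat, Ptprc and Cd163, which mark bile duct, endothelial, stellate and blood cells, were well above background on no array. Other markers of these cells were detected, Cdh5 (endothelial) and Col1a1 (stellate or fibroblast) on all 16 arrays, Sox9 (bile duct), Cd68 (macrophage), Col1a2, Acta2 and Des on 15, and Vim and Emr1 on 12.

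Some markers of other cells differed between the silenced groups and CN-10. Of 6 stellate or fibroblast markers, Vim and Des were lower in all 3 silenced groups, as were 1.19% of all probes. The differences were -0.65, -0.62 and -0.59 log2 units for Vim and -1.17, -0.81 and -0.98 for Des in 4-18, 3-44 and shRNA3T. Acta2 was lower in 4-18, where 12% of all probes were, and Col1a1 was higher in shRNA3T, where 5% were. The log2 of the summed level of the 6 markers ran from 10.20 to 10.33 in CN-10, 9.87 to 10.01 in 4-18, 9.95 to 10.07 in 3-44 and 10.02 to 10.23 in shRNA3T. Of 6 bile duct markers, Krt19 was well above background on the 4 arrays of CN-10 and on no other array, and it was at least 1.16-fold lower in 4-18, 1.42-fold lower in 3-44 and 1.34-fold lower in shRNA3T, taken against the detection floor of their arrays (adjusted p up to 0.0431 by limma), with summed levels of 9.22 to 9.27, 9.18 to 9.41, 9.15 to 9.41 and 9.24 to 9.32. Of 5 macrophage or leukocyte markers, Cd68 was lower in 4-18 (-0.43; summed levels 9.15 to 9.32, 8.85 to 9.08, 9.01 to 9.20 and 9.12 to 9.18), and none of 4 endothelial markers passed (8.77 to 8.93, 8.65 to 8.96, 8.68 to 9.29 and 8.70 to 8.82). Whether they have a part in the differences of the transcription factors was not tested.

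The genes whose pattern over the 16 arrays was most like that of a member were taken by Pearson correlation among probes well above background on all arrays. These correlations follow the 4 groups, which are also the 4 slides, and are a description only. Onecut1 was most like Cxadr (r = 0.96) and Mcart1 (0.96), Foxa1 like Cdc14a (0.95), Rtkn (0.95) and Mtp18 (0.93), and Foxa3 like Rab33b (0.92), Gdap2 (0.88) and Acadl (0.88). Cebpb was most like Abhd6 (0.97), Cgrrf1 (0.97) and RGD1563300 (0.96), Cebpa like Crlf2 (0.94), and Foxa2 like Nsun2 (0.84), Apoo (0.84) and Zc3h8 (0.83). Hnf4a and Prox1 were left out, since their probes were not well above background on every array.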

How the data were processed

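RNA of 16 samples of H35 cells was labelled with Cy3 and hybridized to Agilent 4x44K rat arrays, and the groups were taken from the sample labels. Spots were read from the scans by the authors in Feature Extraction 10.7.3.1. Of each array, the deposited intensity values used are the mean signal and the local background of each spot, with flags, none of them scaled between arrays. The authors' series table had lost its decimal points, and once these were restored by script its values equalled log2 of the median signal after normexp with an offset of 50 (largest difference 4e-11). The submitters' processing notes name limma.

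Here, normexp with an offset of 50 was applied to the mean signal and the median local background with limma 3.58.1 in R 4.3.3. The log2 values were quantile normalized, 1377 control spots and spots flagged as outliers (1.47% of gene spots) were left out, and spots of a probe were averaged. One mean per group was fitted over all 16 arrays with lmFit and eBayes, and p-values were adjusted over the 30365 to 30367 probes with values in each comparison (Benjamini-Hochberg). A gene is read by its brightest probe. Saturation was found on no gene spot. Precision is limited by the number of arrays, and replicates of a group correlated at 0.99 to 1.00 with no identical pair. The fit was tested on simulated data with independent noise. That simulation held no effect of slide, replicate number or array brightness, so it does not bear on them.

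The members and the lists (30 other transcription factors, 34 target genes, cell markers) were chosen with earlier results of these data known. Named genes are all members, Pdrg1, up to 4 genes per list and comparison with at least 2-fold change and an adjusted p under 0.05, and up to 3 genes most like a member; the genes called in all 3 comparisons or in both directions were named after their values were seen. Some listed genes are counted but not reported by name here. Alternatives were the scaling, background correction, outlier spots, the authors' values, a filter on dim probes, the arrays in the fit, array weights, the replicate number as a block, the mean over probes, a 2-fold limit and the removal of arrays. The removal of replicate 1 for Pdrg1 was chosen after seeing the data.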

Additional observations from a re-analysis of the deposited data

Results flagged for a closer look

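On 7 of 40 sets of 4 replicate arrays, 1 array stood apart from the other 3 by Dixon's criterion, which chance meets in about 1 of 20 sets, and each time it was replicate 1. Hnf4a read 8.47 in replicate 1 of 3-44 against 7.59 to 7.66 on the others. Foxa3 read 7.997 in replicate 1 of shRNA3T against 7.67 to 7.73. Onecut1 read 13.93 in replicate 1 of 4-18 against 13.25 to 13.29, and 13.67 in replicate 1 of shRNA3T against 13.23 to 13.30. Pdrg1 was lowest there, with 11.57 in 4-18 against 13.25 to 13.34, 11.89 in 3-44 against 12.86 to 12.95 and 12.39 in shRNA3T against 12.90 to 12.97. The cause was not tested.

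The difference from CN-10 was not the same in all silenced groups for 4 genes, as tested by the direct comparison of these groups in limma. Over all probes, 22.1% passed in 4-18 against 3-44, 20.1% in 4-18 against shRNA3T and 10.6% in 3-44 against shRNA3T. Hnf4a differed between 4-18 and 3-44 by -0.82 log2 units, and by -0.04 with 75th percentile scaling. Onecut1 differed by 0.89 between 4-18 and 3-44 and by -0.83 between 3-44 and shRNA3T. Foxa1 differed by 0.80 between 4-18 and shRNA3T and by 0.59 between 3-44 and shRNA3T. Cebpb differed by -0.68 between 4-18 and 3-44 and by -0.95 between 4-18 and shRNA3T. Of 11 other settings of the fit, the Hnf4a call was lost under 3. The calls of Cebpb in 4-18 against 3-44 and of Foxa1 in 3-44 against shRNA3T were each lost under 4.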

How the results depend on the processing

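With the authors' values, not scaled between arrays, the members past the test numbered 1 in 4-18, 0 in 3-44 and 0 in shRNA3T against CN-10 (5, 2 and 2 as reported), where 15.2%, 0.688% and 1.46% of all probes passed, and 1 in each comparison among the silenced groups (3, 2 and 2 as reported), where 11.5%, 13.2% and 1.23% passed. The other transcription factors then numbered 4, 0 and 4 (11, 9 and 8), and the target genes 7 in 3-44 (14). With 75th percentile scaling after normexp, the members numbered 0 in 3-44, 1 in shRNA3T, 4 in 4-18 against shRNA3T and 1 in 3-44 against shRNA3T, and the other factors 17, 4 and 4, where 58.9%, 1.73% and 3.5% of all probes passed against CN-10, 64.9% in 4-18 against shRNA3T and 2.87% in 3-44 against shRNA3T. With the processed signal and that scaling, the members numbered 3 in 4-18, 1 in shRNA3T and 5 in 4-18 against shRNA3T (27.3%, 11.9% and 29.1% of all probes), and with the processed signal and quantile normalization 1 in shRNA3T (11.2%). With the arrays of the compared groups alone, they numbered 3 in 4-18 and 1 in 4-18 against 3-44, with the mean over probes 1 in 3-44 against shRNA3T, and with a 2-fold limit 0 in all 6 comparisons. Without single arrays, or without replicate 1 of every group, the count ran from 4 to 5 in 4-18, 1 to 2 in 3-44, 2 to 2 in shRNA3T, 2 to 4 for 4-18 against 3-44, 2 to 3 for 4-18 against shRNA3T and 1 to 2 for 3-44 against shRNA3T. For the compared groups alone, the mean over probes and the removal of arrays, no share of all probes is given. Those counts cannot be set against a background.

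Of 480 values of a member under the settings that leave out no replicate, 26 had the opposite sign, 20 of them in comparisons with 4-18, and none of the 26 was a reported call. Prox1 in 4-18 against shRNA3T passed the test after turning, at 0.76 log2 units under 75th percentile scaling (-0.19 as reported), where the median of all probes stood at 0.97. Against CN-10, 4-18 turned to 0.39 for Hnf4a and 0.66 for Prox1 under that scaling, and to -0.66 for Foxa2 with the authors' values. The calls of Cebpb in 4-18 against shRNA3T and of Onecut1 in 3-44 against shRNA3T held under all 11 other settings of the fit and without any single array. The causes were not tested. The brightness of the 4-18 arrays and the dim spots of Hnf4a, Foxa3 and Prox1 limit what can be read.

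With the replicate number as a block, the members past the test numbered 5, 2 and 2 against CN-10 and 3, 2 and 2 among the silenced groups, as without it. No share of all probes is given for that setting either. Deviations of same-numbered arrays correlated with a median of 0.15 (-0.13 to 0.50, 15 of 24 pairs over 0.1), against -0.03 for arrays of other numbers (13 of 72 over 0.1), and 29 of 48 best matches had the same number. Since not every pair was over 0.1, the numbers were not taken as a pairing, but that limit does not exclude one. Same-numbered arrays were more alike than others, those of number 1 most (0.31), and the reported fit leaves this likeness out.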
